A study of Rattus norvegicus with 17 samples.

Results

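Lipocalin 2 (Lcn2) was followed as a single gene, 1 of the 32753 genes in a table of read counts from rat lung. The gene was chosen by its Ensembl rat identifier, ENSRNOG00000013973, with no threshold on its values, though with earlier results of these data known. Neither the count table nor the reference used here pairs Ensembl identifiers with gene symbols, so the name Lcn2 rests on the choice of that identifier. The 17 libraries came from lung parenchyma of Wistar rats, all labelled with the strain RjHan:WI. The control group, given NaCl, had 6 libraries, numbered 1 to 6. The bleomycin group had 5 libraries, numbered 7, 8, 9, 11 and 12, from lungs given bleomycin at 1 mg per kg. Another 6 libraries, numbered 13 to 18 and called treated below, came from lungs given the same dose of bleomycin and BI1015550 at 2.5 mg per kg. Bleomycin is a cytotoxic antibiotic that injures the rodent lung, and the series title names BI1015550 as a PDE4B inhibitor given in a therapeutic model. The labels used here give no age, sex, route, time point or vehicle, and do not state whether libraries and animals correspond one to one.

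Lipocalin 2 is a small secreted protein of the lipocalin family that binds bacterial siderophores and so withholds iron from bacteria. It is stored in neutrophil granules and is made and released by epithelial cells of the airway, kidney and gut during injury and inflammation, and it is widely used as a marker of epithelial damage. Interleukin-1, interleukin-17 and related cytokines raise its transcription through NF-kB and C/EBP factors. The RNA was taken from whole parenchyma, so a change in the number of cells that express Lcn2 and a change in RNA per cell cannot be told apart. Since the identifiers carry no symbols, markers of neutrophils and of lung epithelium could not be set beside Lcn2, and the cellular source of its reads was not tested.

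The sequence upstream of the gene is shown because NF-kB is known to act on the promoter of Lcn2. It is the 179 bases before the first base of any RefSeq model of the gene, matched by the symbol Lcn2, at chr3:36081852-36082030 on the minus strand of GRCr8, a later build than Rnor_6.0, which the submitters' processing notes list. Capitals mark the only place that matched the NF-kB core searched for, the letters GGGA and CC with 4 bases of any kind between them, which was found on both strands in overlapping matches.

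Lcn2 upstream, 5′ to 3′: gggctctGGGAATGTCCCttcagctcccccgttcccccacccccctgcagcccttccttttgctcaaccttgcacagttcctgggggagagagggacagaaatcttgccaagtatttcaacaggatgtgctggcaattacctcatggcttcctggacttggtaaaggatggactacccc

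Of the 33469 RefSeq promoter windows of the same length, 11.6% held the NF-kB core on either strand. The letters TTGCNNAA, part of the sites that C/EBP factors bind, matched at bases 60 to 67 counted from the 5′ end, and 6.96% of the windows held them. The letters TTCNNNGAA, a core of STAT sites, were not in this window, and 5.71% of all windows held them. These matches describe the reference sequence, and no binding was measured in these lungs.

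Lcn2 RNA was far lower in 3 libraries than in the other 14, and this split did not follow the groups. Levels are given in CPM (counts scaled to a common library size) after scaling by trimmed mean of M values (TMM). Control libraries 1, 3, 4 and 6 held 194, 85.0, 198 and 129 CPM, whereas control libraries 2 and 5 held 6.48 and 7.09 CPM. Bleomycin libraries 12 and 7 held the highest levels of the series, 1046 and 736 CPM. Bleomycin libraries 8 and 11 held 215 and 137 CPM, and bleomycin library 9 held 5.87 CPM, the lowest level of all 17 libraries. Treated libraries 13 to 18 held 74.0, 103, 126, 116, 90.2 and 102 CPM in the order of their numbers. The 3 libraries below 10 CPM therefore comprised 2 of 6 control, 1 of 5 bleomycin and 0 of 6 treated libraries, while the other 14 lay between 74.0 and 1046 CPM. No library fell between 7.09 and 74.0 CPM. The mark of 10 CPM was set after the values were seen.

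**Figure D1:**
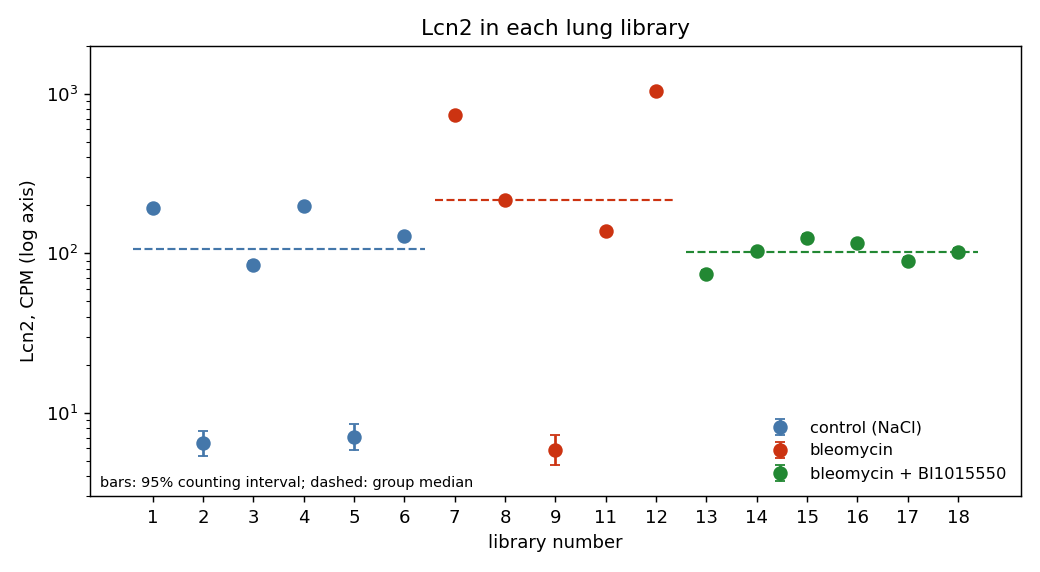
Lcn2 level of each library in CPM on a log axis, with 95% counting intervals (exact Poisson) as bars and the group median as a dashed line. Libraries 2, 5 and 9 lie at 5.87 to 7.09 CPM, the other 14 at 74.0 CPM or more, and the 6 treated libraries lie closest together.

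The counting intervals of the 3 low libraries lay well below those of the others. Bleomycin library 9 had 88 reads of Lcn2 out of a total of 15207791, with an exact 95% Poisson interval of 70.6 to 108 reads. Control libraries 2 and 5 had 124 and 119 reads, with intervals of 103 to 148 and 98.6 to 142. By contrast, the lowest of the other 14 libraries, treated library 13, had 1094 reads (1030 to 1161), and bleomycin library 12 had 16167 (15920 to 16420). On the CPM scale the intervals of the 3 low libraries overlapped one another, at 4.71 to 7.23 for bleomycin library 9, 5.39 to 7.73 for control library 2 and 5.87 to 8.48 for control library 5. These intervals cover counting error only.

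Depth and likeness to the rest of the group were also looked at in the 3 libraries with little Lcn2. Their total counts of 18462105, 16501201 and 15207791 lay among totals of 14609389 to 18462105, with control library 2 the deepest of the series and bleomycin library 9 the shallowest of its group. Without Lcn2, the log2 CPM of all other tested genes in control libraries 2 and 5 correlated with the mean of the other controls at r = 0.990 and 0.987, and the controls ranged from 0.981 to 0.992. Bleomycin library 9 correlated with its group at r = 0.989, the highest of the 5 bleomycin libraries, whose lowest was 0.975. The numbers of genes with a count were 18766, 18736 and 18426 in these libraries, and 18366 to 18885 over all 17. Correlations over so many genes are high for every library and could miss a difference in a limited number of genes, and they are given as descriptions.

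The group means followed the high libraries. Lcn2 averaged 103 ± 85.9 CPM in controls (SD, n = 6 libraries), 428 ± 443 CPM with bleomycin (SD, n = 5 libraries) and 102 ± 18.4 CPM in treated lungs (SD, n = 6 libraries). The medians were 107, 215 and 103 CPM. Bleomycin lungs had the highest mean and median, while controls and treated lungs stood side by side on both. The mean of log2 CPM gave another order, with bleomycin at 7.40, treated lungs at 6.65 and controls at 5.71, since on that scale the 2 low controls weigh more. The 3 groups overlapped in every pair.

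The first comparison asks whether bleomycin changed Lcn2. Lcn2 was higher with bleomycin by a log2 fold change of 2.05 (SE 0.875), or 4.15-fold, with a 95% interval from 1.16-fold to 14.9-fold. Its unadjusted p was 0.0310, and it did not pass the threshold of 0.05 after adjustment (edgeR quasi-likelihood test, Benjamini-Hochberg adjusted p = 0.0726). In this comparison 5738 of the 15000 tested genes were called at that threshold, which is 38.3% of them. CPM ranges did not overlap for 18.1% of the genes, and those of Lcn2 did. A change of this size was rarely left uncalled, as 273 genes had a larger absolute log2 fold change and 271 of them were called. The fit assumed the same dispersion of Lcn2 in every group. The SD of its log2 CPM was 2.30 in controls, 2.95 with bleomycin and 0.271 in treated lungs. With only the bleomycin and control libraries in the fit, the unadjusted p was 0.0685 (edgeR quasi-likelihood test, adjusted p = 0.143). The bleomycin library was the higher one in 22 of the 30 pairs of a bleomycin and a control library. The difference in mean log2 CPM was 1.69, with a two-sided exact permutation p of 0.307 (adjusted p = 0.584 over the 3 comparisons). It was 2.90 without bleomycin library 9 (exact permutation p = 0.0762) and 1.03 without bleomycin library 12 (exact permutation p = 0.533). The difference in medians of log2 CPM over all libraries was 1.04 (exact permutation p = 0.273, adjusted p = 0.409).

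This result turned on single bleomycin libraries. Without bleomycin library 9 the log2 fold change was 2.37 and passed the threshold (edgeR adjusted p = 0.0210). Without bleomycin library 12 it was 1.41 (edgeR adjusted p = 0.226). Without bleomycin library 7 it was 1.77 (edgeR adjusted p = 0.149). Leaving out 1 of the other 14 libraries gave values between those extremes, none of them past the threshold. The library that was left out for the passing value is the lowest of its group, so that value describes how much weight it carries and is no separate evidence of a rise. With limma voom and library quality weights the log2 fold change was 0.45 (adjusted p = 0.783). Those weights were 2.10 for bleomycin library 9 and 0.350 and 0.691 for libraries 7 and 12, and without weights the log2 fold change was 1.71 (adjusted p = 0.250).

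The second comparison asks whether BI1015550 changed Lcn2 in lungs given bleomycin. Treated lungs were lower by a log2 fold change of -2.07 (SE 0.876), which places bleomycin lungs 4.20-fold above them, with an unadjusted p of 0.0298. After adjustment the difference did not pass the threshold (edgeR quasi-likelihood test, adjusted p = 0.0856), in a comparison that called 27.8% of all tested genes. Only 100 genes had a larger absolute log2 fold change, and 95 of them were called. The 95% interval ran from -3.91 to -0.23 on the log2 scale. With only the treated and bleomycin libraries in the fit, the unadjusted p was 0.0194 (edgeR quasi-likelihood test, adjusted p = 0.0641). The groups overlapped through bleomycin library 9 alone: the other 4 bleomycin libraries held 137 to 1046 CPM, and the highest treated library held 126 CPM. CPM ranges did not overlap for 14.1% of all tested genes. The treated library was the higher one in 6 of 30 pairs, all of them against bleomycin library 9.

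On mean log2 CPM the difference between treated and bleomycin lungs was -0.75 (two-sided exact permutation test, p = 0.584, adjusted p = 0.584), and its size fell to -0.09 without bleomycin library 12 (exact permutation p = 0.933). Without bleomycin library 9 the edgeR log2 fold change was -2.39 (adjusted p = 0.0286), and the difference in mean log2 CPM was -1.95 (exact permutation p = 0.00476, adjusted p = 0.0143). As above, that library holds the lowest value of its group. It alone overlapped the treated range, so that permutation p is the smallest possible for the libraries left. With limma voom and quality weights the direction turned, to a log2 fold change of 0.88 (adjusted p = 0.615), and without weights it was -0.74 (adjusted p = 0.647). Bleomycin against control and treated against bleomycin use the same 5 bleomycin libraries, so the fold changes of 2.05 and -2.07 are tied to each other through them.

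The third comparison asks what difference from control was left in treated lungs. The log2 fold change was -0.02 (SE 0.824, edgeR quasi-likelihood test, adjusted p = 0.993), with a 95% interval from 0.297-fold to 3.28-fold. An interval of that width leaves room for changes of more than 3-fold in either direction. In this comparison 8.39% of the tested genes were called, and ranges did not overlap for 5.59%. All 6 treated libraries lay within the range of the controls, 6.48 to 198 CPM. The direction depended on the scale: the difference in mean log2 CPM was 0.95, with treated lungs higher (two-sided exact permutation p = 0.431, adjusted p = 0.584), and the difference in medians was -0.03. The difference in mean log2 CPM was 0.35 without control library 2 and 0.38 without control library 5. Limma voom gave 1.33 with quality weights (adjusted p = 0.425) and 0.97 without them (adjusted p = 0.651).

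For the same reason the share of the bleomycin difference left in treated lungs had no fixed size. It was 55.9% from means of log2 CPM and -0.44% from means of CPM. Leaving out 1 library moved the log2 value from 31.9% (without control library 2) to 91.5% (without bleomycin library 12). Both parts of this share use the same control libraries, and it was not tested.

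**Figure D2:**
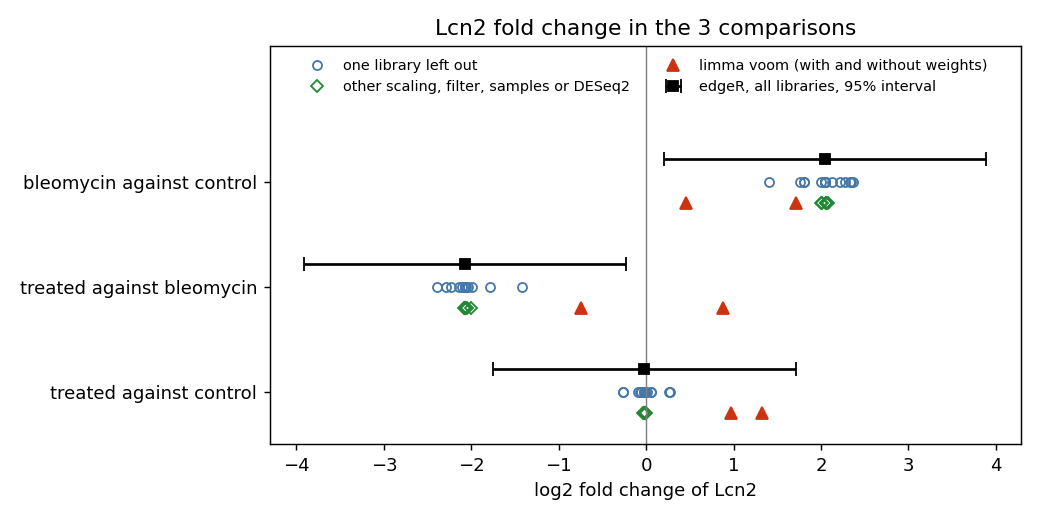
Log2 fold change of Lcn2 (x axis) in the 3 comparisons: black squares with 95% intervals are the edgeR values from all 17 libraries, open circles leave out 1 library, diamonds change the scaling, filter, samples or use DESeq2, and triangles are limma voom with and without quality weights. The edgeR values lie at 2.05, -2.07 and -0.02, and the voom values with weights, at 0.45, 0.88 and 1.33, lie far from them.

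The error on Lcn2 was among the largest in the table. Its SE of 0.875 for bleomycin against control compares with a median SE of 0.141 over all tested genes, and 99.7% of them had a smaller one. The dispersion of Lcn2 was 0.866, a biological coefficient of variation of 93.1%, against 19.9% for the common dispersion, and 44 of 15000 genes had a higher dispersion. From its lowest to its highest library Lcn2 spanned 178-fold, and 10 genes had a wider range of log2 CPM.

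The spread of Lcn2 was wide in controls and bleomycin lungs, and narrower in treated lungs, though still above that of the median gene. The SD of log2 CPM was 2.30 among controls, where 10 of 15000 genes had a larger one, and the median gene had 0.217. Among bleomycin lungs it was 2.95, with 5 genes above it and a median of 0.247. In treated lungs the SD was 0.271 beside a median of 0.185, and 4748 genes had a larger one. A total of 3897 genes, Lcn2 included, had a mean log2 CPM within 1 of that of Lcn2. Of these, 0 had a larger SD than Lcn2 in controls or with bleomycin, and 457 had a larger one in treated lungs. The median SD of these genes in treated lungs was 0.1235, and 88.25% of them had a smaller SD than Lcn2 there. The treated libraries spanned 1.70-fold from lowest to highest, the bleomycin libraries 178-fold and the controls 30.6-fold. With libraries 2, 5 and 9 set aside, the remaining 4 controls spanned 2.33-fold and the remaining 4 bleomycin libraries 7.62-fold, given as ranges with no test because those libraries were picked by their Lcn2 values. Whether the spread itself differed between groups was not tested.

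**Figure D3:**
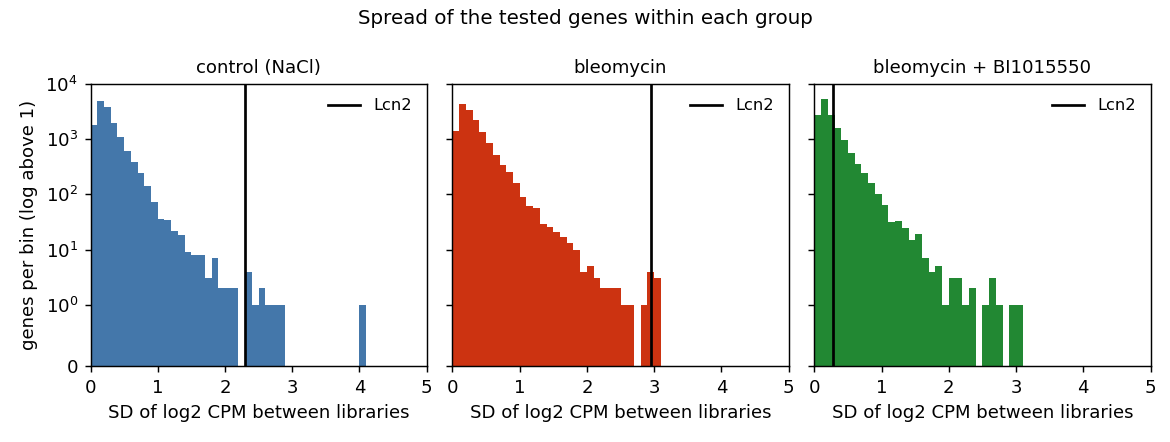
Number of tested genes (y axis, linear up to 1 and log above) by the SD of their log2 CPM between the libraries of each group (x axis), with Lcn2 as a black line. Lcn2 lies in the far tail among controls (2.30) and bleomycin lungs (2.95) and within the bulk of the genes in treated lungs (0.271).

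Lcn2 was set beside the first principal component of all other tested genes, which held 35.9% of the variance and on which controls lay lowest and bleomycin lungs highest. Bleomycin libraries 7 and 12, with the most Lcn2, lay farthest out, at 68.1 and 52.3. Bleomycin library 9, with the least, came next at 41.7, beyond libraries 11 (31.5) and 8 (25.5). Control libraries 2 and 5 lay at -34.1 and -32.2, inside the control range of -38.4 to -25.7. Low Lcn2 was thus found within both the control and the bleomycin range of this axis. Among the 6 treated libraries Lcn2 ran with the component, from library 13 (74.0 CPM at -13.4) to library 15 (126 CPM at 8.56). For these 6, Pearson's r between log2 CPM and the component was 0.870 (exact permutation p = 0.0306, adjusted p = 0.0611 over 2 groups) and Spearman's rho was 0.829 (exact permutation p = 0.0583, adjusted p = 0.117). Without the 2 libraries farthest from the median of the component, r was 0.621 over 4 libraries. Among the 6 controls r was 0.272 (exact permutation p = 0.604) and rho was 0.486 (exact permutation p = 0.356), with r = 0.241 over the 4 controls left on the same rule. This relation was examined after the values were seen, it does not pass the threshold after adjustment, and it was not computed for the 5 bleomycin libraries.

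**Figure D4:**
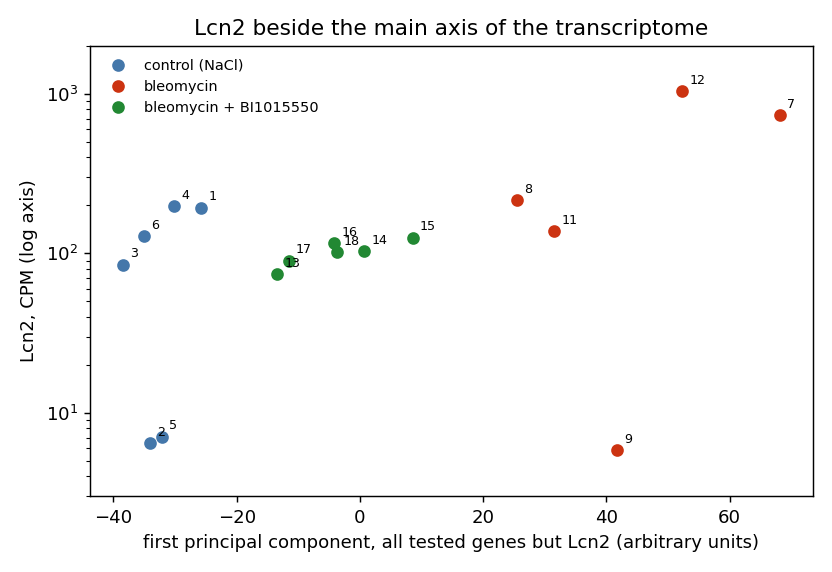
Lcn2 in CPM (log axis) against the position of each library on the first principal component of all other tested genes (arbitrary units), with library numbers beside the points. Libraries 2 and 5 in the control range and library 9 in the bleomycin range all lie below 10 CPM.

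Few genes varied across the libraries as Lcn2 did, and none of the most similar ones varied nearly as much. Over all 17 libraries, 2 of the other 14999 tested genes had a Pearson correlation of log2 CPM with Lcn2 above 0.8 and 0 had one below -0.8. The closest were ENSRNOG00000012447 (r = 0.845, rho = 0.855) and ENSRNOG00000014178 (r = 0.836, rho = 0.784), which are named by identifier. Without libraries 9 and 2, the farthest from the median of Lcn2, the correlations were 0.783 and 0.694.

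ENSRNOG00000014178 held 21.0, 22.8 and 23.1 CPM in control library 2, control library 5 and bleomycin library 9, and 25.0 to 33.6 CPM in the other 14 libraries. Its lowest 3 libraries were therefore those of Lcn2, but it spanned 1.60-fold where Lcn2 spanned 178-fold. ENSRNOG00000012447 held 5.85, 6.61 and 6.87 CPM in the same 3 libraries, and treated library 17 came between them at 6.81 CPM. It spanned 1.69-fold in all. Neither gene was called in any comparison. For ENSRNOG00000012447 the edgeR adjusted p was 0.259 (bleomycin against control), 0.339 (treated against bleomycin) and 0.949 (treated against control). For ENSRNOG00000014178 the 3 values were 0.741, 0.936 and 0.880.

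The most opposed genes were ENSRNOG00000010421 (r = -0.782, rho = -0.757) and ENSRNOG00000003992 (r = -0.740, rho = -0.576), which spanned 1.39-fold and 1.49-fold over the libraries. When deviations from the group means were used in place of levels, 6 genes had a correlation above 0.8 with Lcn2 and 0 had one below -0.8, and the widest range among the 6 was 3.67-fold. These genes were picked as the extremes of 14999 correlations over libraries that all of them share, so the correlations are descriptions with no test.

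**Figure D5:**
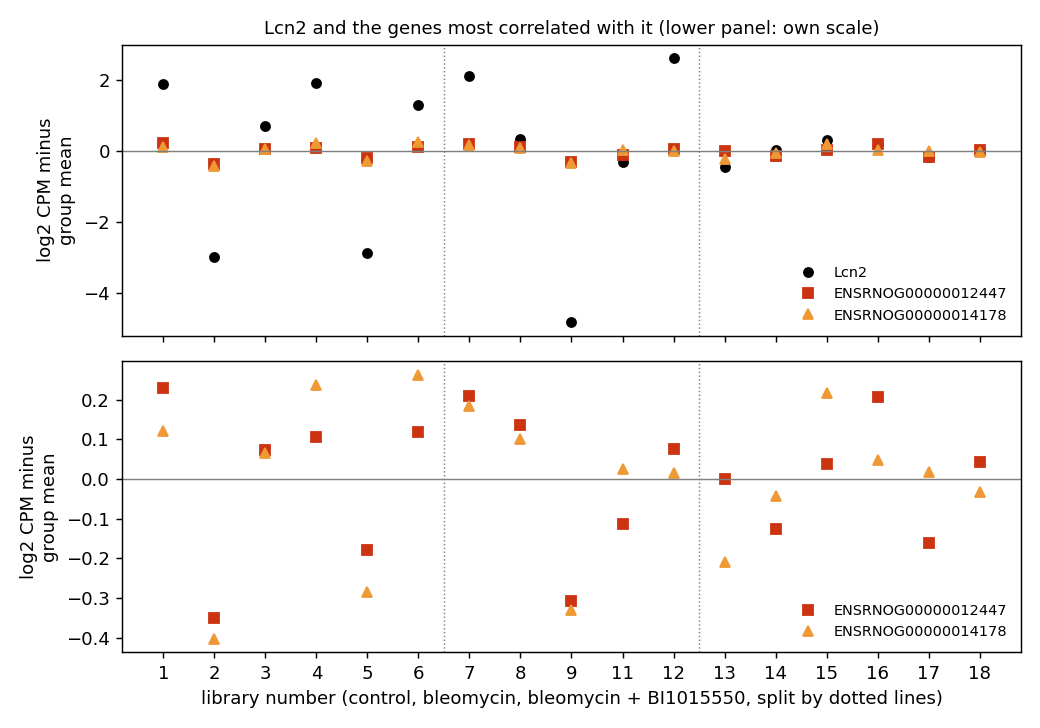
Deviation of log2 CPM from the group mean in each library for Lcn2 and the 2 genes most correlated with it (upper panel), and for those 2 genes on a scale of their own (lower panel). Libraries 2, 5 and 9 are low for all 3 genes, by -2.98, -2.85 and -4.82 for Lcn2 and by at most -0.40 for the others.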

How the data were processed

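RNA was extracted with RNeasy columns and made into TruSeq mRNA libraries, per the labels' protocols. The authors deposited raw counts per Ensembl gene for 17 libraries, whose columns match the sample labels. The submitters' processing notes name STAR 2.5.2 and 2.5.2b, featureCounts 1.5.1 and RSEM 1.3.0 with no role, and the builds Rnor_6.0, hg38 and GRCh38. Not given in the sources used here are the tool behind the counts, the annotation and the strand setting, so reads shared with overlapping or similar genes may affect Lcn2.

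The analysis used edgeR 4.0.16 in R 4.3.3. Its filterByExpr kept 15000 of the 23083 genes with a count, libraries were scaled by TMM, and 1 quasi-likelihood fit over all 17 libraries had group as its only term. P-values were adjusted over all tested genes (Benjamini-Hochberg, threshold 0.05), and SEs are the absolute log2 fold change over the square root of F. Log2 CPM used a prior count of 2. Exact permutation tests were two-sided. For group differences in mean log2 CPM over all libraries their smallest possible p was 0.00216, and it could be higher with a library left out. The edgeR test was checked on simulated counts whose dispersions followed the trend with expression and were the same in all groups. That check does not show how the test behaves on Lcn2, with a dispersion of 0.866 and a spread that differed between groups. Alternatives were DESeq2 1.42.0, limma 3.58.1 (voom; without weights added after seeing the data), other scalings, no filter, the 2 groups alone, and each library left out. The rule for named genes took Lcn2 and, without symbols, the 2 genes with the highest and the 2 with the lowest correlation with it. Gene lists by symbol (inducers, receptors, iron handling, cell markers) could not be run. The rule for the gene uses no measured value, but the gene and the lists were chosen with earlier results of these data known. P-values weigh differences and correlations against the spread between libraries, which may be technical.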

Additional observations from a re-analysis of the deposited data

How the results depend on the processing

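The edgeR log2 fold changes of Lcn2 kept their direction and stayed short of the threshold under upper quartile, RLE and library total scaling, with no filter, with the 2 groups alone and with DESeq2 (adjusted p = 0.0537, 0.0629 and 0.994). Leaving out 1 library in turn gave 1.41 to 2.37 for bleomycin against control, -2.39 to -1.43 for treated against bleomycin and -0.27 to 0.27 for treated against control, whose sign turned in 5 of 17 cases. The first 2 of these passed the threshold only without bleomycin library 9. Limma voom with quality weights turned treated against bleomycin to 0.88, and treated against control to 1.33, or 0.97 without weights. Its weights were 2.10 for bleomycin library 9 and 0.303, 1.78, 1.39, 0.633, 1.11 and 2.53 for control libraries 1 to 6. Without weights, voom gave 1.71, -0.74 and 0.97 in the 3 comparisons, close to the differences in mean log2 CPM (1.69, -0.75 and 0.95). The difference in mean log2 CPM ranged over left-out libraries from 1.03 to 2.90 for bleomycin against control, from 0.35 to 1.33 for treated against control and from -1.95 to -0.088 for treated against bleomycin, and the second of these became -0.028 with medians. Over left-out libraries the share left was 31.9% to 91.5%. Genes called for treated against control numbered 1259, but 2546 with weighted voom, for which the cause was not tested, and 794 to 1573 with 1 library left out. Lcn2 had at least 88 reads in every library. No paired analysis was made because the labels give no pairing or batch.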
